A study of Mus musculus with 9 samples.

Results

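The clustered histone genes are the histone genes that lie in a few tight groups in the mouse genome and carried symbols starting with Hist1h, Hist2h, Hist3h or Hist4h. They were described in sorted microglia, the resident macrophages of the brain, on 9 arrays of 3 genotypes. The RefSeq gene table lists such a symbol, now mostly an older synonym, for 70 genes, and 30 of these had a probe set assigned to that gene alone. These 30 genes, of 22180 measured genes, are the members: 5 of linker histone H1, 8 of H2A, 9 of H2B and 8 of H4. No H3 gene was among them, because each of the 12 clustered H3 genes was measured only by probe sets that the annotation assigns to several genes. Of the members, 22 belong to the Hist1 cluster on chromosome 13, 5 to Hist2 on chromosome 3, 2 to Hist3 on chromosome 11 and 1, H4f16, is Hist4h4 on chromosome 6.

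All mice were female C57Bl/6, 24 to 28 weeks old, and their microglia were isolated by flow sorting, with 3 arrays per genotype. The wild type group carried neither the transgene nor floxed alleles, as far as its label says. The FAD group had the genotype FAD Hdac1/2fl/fl, that is the 5X familial Alzheimer's disease transgenes, which are known to be driven by a neuronal promoter and to give amyloid plaques, with floxed Hdac1 and Hdac2. The FAD DKO group, FAD Hdac1/2fl/fl Cx3cr1CreERT2, carried the same alleles and also a Cre recombinase that tamoxifen activates, placed in the fractalkine receptor locus, which is active in microglia and in other cells that express this receptor. Mice of all 3 groups received 8 mg tamoxifen at 6 weeks of age. FAD and FAD DKO therefore differ in the Cre allele as well as in the deletion, and these cannot be told apart. By their labels, FAD and wild type differ in the floxed alleles as well as in the transgenes, which cannot be told apart either. FAD DKO differs from wild type in all of these. The labels do not say whether the arrays of a group came from separate animals, so p-values measure the spread between samples, which may be technical.

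A nucleosome is DNA wrapped around a core of histones H2A, H2B, H3 and H4, and the linker histone H1 binds where the DNA enters and leaves that core. Most clustered genes are transcribed in S phase, when new DNA has to be packaged, and their transcripts end in a stem-loop in place of a poly(A) tail. Some also give polyadenylated transcripts in cells that have left the cell cycle. The RNA was amplified before labelling, and how well that step read transcripts without a poly(A) tail was not tested. Hdac1 and Hdac2 encode deacetylases that remove acetyl groups from histone tails, so the comparisons ask whether the genes of their substrates differ in the disease model and after the deletion.

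Across the arrays, log2 medians lay between 5.346 and 5.398. Hdac1 was at 8.03, 8.14 and 8.19 on the FAD arrays and at 7.63, 7.41 and 7.64 on those of FAD DKO, and Hdac2 at 8.56, 8.52 and 8.36 against 7.89, 7.61 and 7.90. The FAD DKO arrays were the lowest for both genes and did not overlap with FAD, with differences of -0.56 (adjusted p = 0.376 in limma) and -0.68 (adjusted p = 0.159). The probes may lie outside the deleted exons. Cx3cr1, whose locus holds the Cre, was at 12.14, 12.13 and 12.11 on the FAD arrays and at 11.86, 11.95 and 11.82 on those of FAD DKO. All 9 measured microglia markers stood above the median probe set, with list means between 10.83 and 11.08 in every array. Marker lists of neurons, astrocytes, oligodendrocytes, lymphocytes, border macrophages and endothelial and mural cells had list means between 4.18 and 5.64. Neutrophil and monocyte markers were the exception, with list means of 6.64 to 7.31 in wild type. They were 7.31 to 7.44 in FAD and 6.03 to 7.99 in FAD DKO, where replicate 1 was lowest and replicate 2 highest. In FAD against wild type 8 of 8 of these markers lay above 0 (median 0.36), beside 47.9% of all genes. All 9 microglia markers lay below 0 there (median -0.11), and 0 of either list were called. In bulk samples, fewer cells of a type and less RNA per cell cannot be told apart.

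No clustered histone gene passed an adjusted p under 0.05 in any of the 3 comparisons. In the comparisons with FAD DKO the values furthest from 0 belonged to H1f5, a linker histone gene, whose mean signal in FAD DKO was 2.09 times that in wild type and 1.93 times that in FAD, and to H2ac15, an H2A gene near it on chromosome 13. In FAD DKO against FAD, H1 genes had a median log2 difference of 0.40 and all 9 H2B genes lay below 0, with a median of -0.12. Of all genes, 53.2% lay above 0 in that comparison. Of 8 distinct H2B profiles from probe sets assigned to several genes, 3 lay above 0 there, with a median of -0.03. In FAD against wild type no type had a median further from 0 than 0.08, and the sign of each type's median turned when single arrays were left out.

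In limma, with Benjamini-Hochberg adjustment over all genes, 0 of 30 members were called in FAD against wild type, where 0.0406% of all genes were called. The lowest adjusted p among them was 0.493. An unadjusted p under 0.05 was reached by 2 members, beside 8.43% of all genes: 1 was higher, beside 4.41%, and 1 lower, beside 4.02%. There was no overlap between the groups for 3 members, beside 11.8% of all genes: 2 were higher, beside 6.37%, and 1 lower, beside 5.46%. Of the members 18 of 30 lay above 0, beside 47.9% of all genes, with a median of 0.02 against -0.01 over all genes. The shares without overlap are close to those of all genes.

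For FAD DKO against FAD, 0 of 30 members were called, beside 0.0225% of all genes, and the lowest adjusted p was 0.282. An unadjusted p under 0.05 was reached by 6 members, beside 8.1% of all genes: 3 were higher, beside 3.69%, and 3 lower, beside 4.41%. There was no overlap for 6 members, beside 11.9% of all genes. H1f5, H1f3 and H2ac15 lay above FAD, beside 5.38% of all genes, and H2bu1-ps, H4c17 and H4f16 below it, beside 6.5%. Of the members 13 of 30 lay above 0, beside 53.2% of all genes, and their median was -0.07, against 0.01 over all genes. Under a low-signal filter the median of the 16 members left was 0.058.

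For FAD DKO against wild type, 0 of 30 members were called, beside 0.14% of all genes, with a lowest adjusted p of 0.249. Here 6 members had an unadjusted p under 0.05, beside 8.14% of all genes: 3 were higher, beside 3.95%, and 3 lower, beside 4.19%. There was no overlap for 6 members, beside 11.9%. H1f5 and H2ac21 lay above wild type, beside 5.77% of all genes, and H2bc1, H2bc3, H2bu1-ps and H4c17 below it, beside 6.15%. Of the members 16 of 30 lay above 0, beside 51.3%, and the median was 0.01. Any 2 of the 3 comparisons share the arrays of a group, so their values are not independent.

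**Figure D1:**
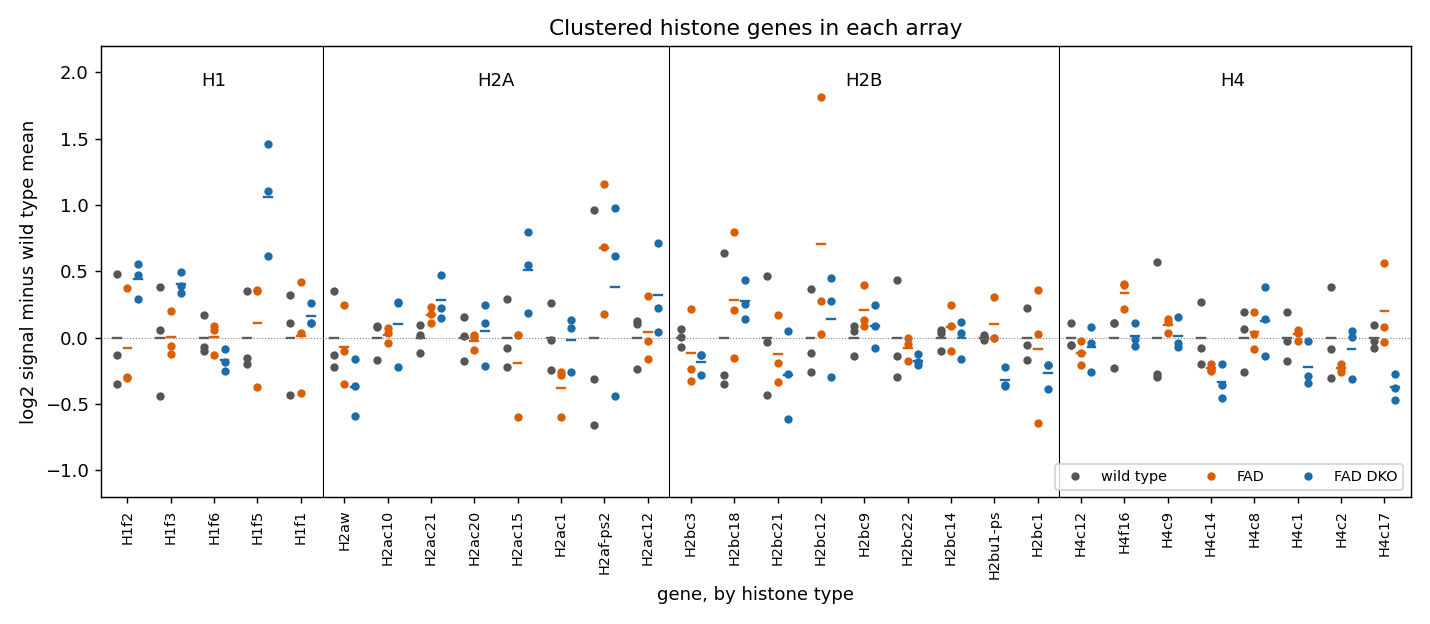
Each point is an array, and each dash a group mean, of the log2 signal minus the gene's wild type mean, for the 30 genes ordered by histone type. The 3 FAD DKO points of H1f5 lie above every other H1f5 point, and 1 FAD array of H2bc12 lies far above the rest.

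The largest difference of any member was that of an H1 gene. H1f5, formerly Hist1h1b, encodes a linker histone typical of dividing cells. Its log2 signal was 4.16, 3.66 and 3.61 on the wild type arrays, 3.44, 4.16 and 4.17 on the FAD arrays and 5.27, 4.92 and 4.43 on those of FAD DKO. Every FAD DKO array lay above all wild type and FAD arrays, and wild type and FAD overlapped. The difference from FAD was 0.95 (SE 0.263, 95% interval 0.35 to 1.55, unadjusted p = 0.0057, adjusted p = 0.383 in limma). From wild type it was 1.06 (SE 0.263, interval 0.47 to 1.66, unadjusted p = 0.00296, adjusted p = 0.249). Its mean in each group was below the median probe set of 5.354, so the size of these differences is uncertain.

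H1f2 and H1f3, formerly Hist1h1c and Hist1h1d, encode linker histones found in many somatic tissues. Both also had their highest group mean in FAD DKO, with smaller differences than H1f5. H1f2 stood at 8.30, 7.69 and 7.47 on the wild type arrays, 7.53, 7.52 and 8.19 on the FAD arrays and 8.37, 8.11 and 8.29 on those of FAD DKO. H1f3 stood at 6.28, 5.95 and 5.45 on the wild type arrays, 5.77, 5.83 and 6.09 on the FAD arrays and 6.39, 6.23 and 6.28 on those of FAD DKO. The FAD DKO arrays were close together for both genes, while wild type replicate 1 reached their level. FAD DKO minus FAD was 0.51 for H1f2 (SE 0.235, adjusted p = 0.622) and 0.40 for H1f3 (SE 0.184, adjusted p = 0.625). For H1f2 the interval ran from -0.02 to 1.05, which includes 0 and a 2-fold change.

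The other members of this type were lower in signal. H1f6, the testis linker histone H1t, stood at group means of 4.52, 4.53 and 4.35 in wild type, FAD and FAD DKO, and was the 1 H1 gene below 0 after deletion (-0.18, SE 0.097, adjusted p = 0.66). H1f1 stood at 3.22, 3.23 and 3.38. In FAD against wild type the 5 H1 genes differed by -0.07 to 0.11, and the lowest adjusted p was 0.936. H1f4, the remaining clustered H1 gene, was read only by a probe set shared with 3 H2B genes, which stood at 8.35, 8.52 and 8.68 in the 3 groups (FAD DKO minus wild type 0.33, adjusted p = 0.635 in the fit that added shared probe sets).

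The mean of the 5 H1 genes, relative to wild type, was 0.54, 0.33 and 0.27 in the FAD DKO arrays, -0.10, -0.07 and 0.21 in FAD, and 0.29, -0.15 and -0.14 in wild type. Wild type replicate 1 therefore lay within the FAD DKO range. The neutrophil and monocyte markers, 8 of 8 of which lay below 0 in FAD DKO against FAD (median -0.27, none called), had their lowest list mean in FAD DKO replicate 1 (-1.03 relative to wild type) and their next lowest in wild type replicate 1 (-0.41). Both arrays were the highest of their group for the H1 mean, and FAD DKO replicate 2, with a marker mean of 0.93, had an H1 mean of 0.33. The part of these cells in the H1 values was not tested. Leaving out 1 array, the H1f5 difference from FAD ranged from 0.71, without FAD replicate 1, to 1.17, without FAD DKO replicate 3. Without FAD DKO replicate 1, H1f5 differed from FAD by 0.75 (unadjusted p = 0.0243, adjusted p = 0.561 in limma), and the H1 median was 0.36.

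**Figure D2:**
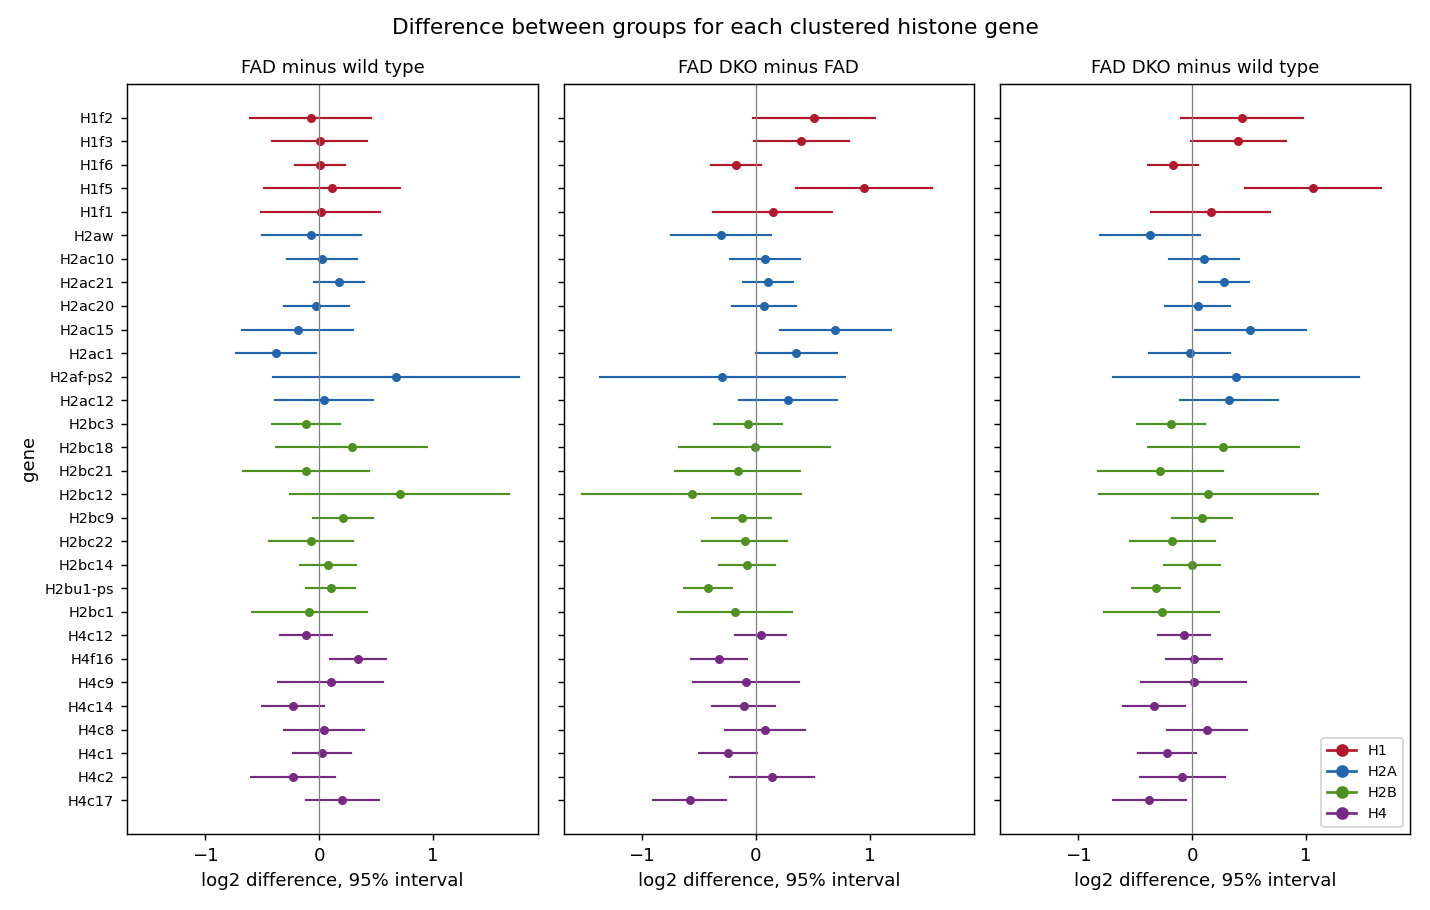
Points are log2 differences between group means and lines their 95% intervals from the limma fit, by gene and coloured by histone type, in the 3 comparisons. The H1f5 interval lies above 0 in both comparisons with FAD DKO (0.35 to 1.55 and 0.47 to 1.66), and most other intervals cross 0.

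The sequence before the start is shown for H1f5, H1f2, H1f3 and H2ac15, chosen after their values were seen as the members with the highest differences in FAD DKO against FAD, none of them called. The 150 bases that end just before the RefSeq start are given from assembly GRCm38.p6. They are chr13:21780626-21780775 on the minus strand for H1f5, chr13:21753913-21754062 on the minus strand for H2ac15, chr13:23738657-23738806 on the plus strand for H1f2 and chr13:23554882-23555031 on the plus strand for H1f3. Capitals mark matches, on either strand, to TATAAA (the TATA box), CCAAT (the CCAAT box), AAACACA (the AC box known from H1 promoters) and ATTTGCAT (the octamer motif known from H2B promoters).
H1f5: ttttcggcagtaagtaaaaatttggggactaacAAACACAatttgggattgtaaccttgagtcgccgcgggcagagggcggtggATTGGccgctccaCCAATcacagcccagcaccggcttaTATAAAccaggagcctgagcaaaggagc
H1f2: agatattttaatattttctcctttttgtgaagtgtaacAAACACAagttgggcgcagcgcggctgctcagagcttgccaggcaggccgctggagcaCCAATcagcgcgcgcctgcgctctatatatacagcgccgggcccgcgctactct
H1f3: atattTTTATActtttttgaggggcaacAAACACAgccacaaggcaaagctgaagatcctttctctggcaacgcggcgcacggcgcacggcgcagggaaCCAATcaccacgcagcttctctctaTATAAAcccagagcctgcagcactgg
H2ac15: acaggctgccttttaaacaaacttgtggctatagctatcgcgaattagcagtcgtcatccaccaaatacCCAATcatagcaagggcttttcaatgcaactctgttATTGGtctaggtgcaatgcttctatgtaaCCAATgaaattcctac

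Among the 3 H1 genes, AAACACA began 117 bases before the start in H1f5, 112 in H1f2 and 122 in H1f3. A CCAAT match lay 53, 54 and 51 bases before the start, and H1f5 had another at 66. TATAAA lay 28 bases before the start in H1f5 and 26 in H1f3, which had another at 145, and these letters were not found in the H1f2 stretch. H2ac15 had 3 CCAAT matches, at 81, 45 and 16 bases, and none of the other motifs in its stretch.

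RefSeq promoters, of 300 bases with 250 before the start, were matched for 26 of the 30 members. Matches were counted at any position of the 300 bases and on either strand. Over these, TATAAA was found in 61.5%, against 13.6% of 32851 promoters of all genes, and CCAAT in 76.9% against 37.4%. The TATAAA matches lay between position -212, in H2bc22, and position 41, in H4c1, relative to the start. Their share is therefore not a share of promoters with a TATA box at a set place. ATTTGCAT was found in 34.6% against 1.74%, and AAACACA in 26.9% against 7.18%. By type, AAACACA was present in 4 of 5 H1, 1 of 7 H2A, 2 of 7 H2B and 0 of 7 H4 promoters. ATTTGCAT was present in 5 of 7 H2B and 4 of 7 H2A promoters and in none of the H1 and H4 promoters matched. TATAAA was present in 57.1% to 71.4% of the promoters of each type. CCAAT was present in every H1, H2A and H2B promoter matched and in 1 of 7 H4 promoters. A match describes letters and not a bound site.

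Among the 8 H2A genes, H2ac15, formerly Hist1h2ak, stood furthest from 0. It was at 5.80, 5.29 and 5.43 on the wild type arrays, 4.91, 5.53 and 5.53 on the FAD arrays and 6.31, 6.06 and 5.70 on those of FAD DKO. All FAD DKO arrays lay above all FAD arrays, while the lowest of them, replicate 3, lay below wild type replicate 1. The difference from FAD was 0.70 (SE 0.215, interval 0.21 to 1.18, unadjusted p = 0.01, adjusted p = 0.434 in limma), and 0.56 without FAD DKO replicate 1. From wild type it was 0.51 (SE 0.215, unadjusted p = 0.0414, adjusted p = 0.583).

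H2ac1, formerly Hist1h2aa and known as a testis H2A, was the H2A gene with the smallest p in FAD against wild type. It stood at 5.84, 5.34 and 5.57 on the wild type arrays, 5.33, 4.99 and 5.30 on the FAD arrays and 5.72, 5.65 and 5.32 on those of FAD DKO. The highest FAD array lay just below the lowest wild type array, and FAD DKO overlapped with both groups. FAD minus wild type was -0.38 (SE 0.156, unadjusted p = 0.0388, adjusted p = 0.584), and FAD DKO minus FAD was 0.36 (unadjusted p = 0.0476, adjusted p = 0.613).

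H2ac21, formerly Hist2h2ab, has 2 probe sets that disagreed. The brighter had a wild type mean of 6.41, a FAD mean of 6.58 and a FAD DKO mean of 6.69, and FAD DKO minus wild type was 0.28 (SE 0.0979, unadjusted p = 0.0184, adjusted p = 0.472). The dimmer gave -0.0017 for the same comparison (unadjusted p = 0.99 in the limma fit of every probe set). The value for this gene therefore depends on the probe set.

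The other H2A genes had smaller or less steady values. H2aw, formerly Hist3h2a, stood at 8.12, 7.55 and 7.63 on the wild type arrays, 8.01, 7.42 and 7.67 on the FAD arrays and 7.40, 7.61 and 7.18 on those of FAD DKO (FAD DKO minus wild type -0.37, SE 0.193, adjusted p = 0.675). The groups overlapped. The pseudogene H2af-ps2 gave the highest H2A difference in FAD against wild type, 0.68, but its wild type arrays spread from 2.46 to 4.08 (SE 0.477, interval -0.40 to 1.75). H2ac10 and H2ac20 differed by -0.02 to 0.10 in the 3 comparisons, and H2ac12 lay near the floor of the array, with a mean of 1.84. The H2A median was -0.0007 in FAD against wild type, 0.09 in FAD DKO against FAD and 0.19 in FAD DKO against wild type. The second was 0.06 without FAD replicate 1 and 0.17 without FAD DKO replicate 2. The last was 0.04 without wild type replicate 3, 0.11 without FAD DKO replicate 1, 0.08 with array weights or a low-signal filter and 0.12 with the mean of probe sets.

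The 9 H2B genes all lay below 0 in FAD DKO against FAD, between -0.56 and -0.01, where 53.2% of all genes lay above 0. The count was 8 of 9 with quantile normalization, and leaving out 1 array changed it too. It was 7 of 9 without FAD replicate 2, without FAD replicate 3 or without FAD DKO replicate 2, and 8 of 9 without FAD DKO replicate 1 or 3. The median moved from -0.12 to -0.05 without FAD replicate 3 and to -0.23 without FAD replicate 1. Probe sets shared by several H2B genes gave 8 distinct profiles, of which 3 lay above 0 in this comparison, with a median of -0.03. The H2B mean relative to wild type was -0.16, 0.18 and 0.31 in the FAD arrays and -0.11, -0.07 and -0.05 in FAD DKO, so FAD replicate 1 lay below all FAD DKO arrays. In FAD against wild type 5 of 9 lay above 0, and in FAD DKO against wild type 3 of 9, with medians of 0.08 and -0.17. The first median turned to -0.0022 without FAD replicate 2, to -0.0061 without FAD replicate 3 and to -0.12 under a low-signal filter, which leaves 3 H2B genes. The second turned to 0.03 without wild type replicate 1.

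H2bc12, formerly Hist1h2bk, gave the lowest H2B difference of that comparison and rested on 1 array. It stood at 4.55, 4.06 and 3.92 on the wild type arrays, 4.20, 4.45 and 5.99 on the FAD arrays and 3.88, 4.62 and 4.45 on those of FAD DKO. FAD replicate 3 was far above the other 8 arrays, and the interval of -1.52 to 0.40 includes 0. H2bu1-ps, the pseudogene formerly Hist3h2bb, had the smallest p of all members after deletion. It stood at 2.36, 2.32 and 2.33 on the wild type arrays, 2.33, 2.64 and 2.33 on the FAD arrays and 1.98, 1.97 and 2.12 on those of FAD DKO (difference from FAD -0.42, SE 0.0936, unadjusted p = 0.00165, adjusted p = 0.282 in limma). FAD DKO lay below both other groups without overlap, at a level below which only 5.08% of probe sets lay. A brighter probe set, 17250162, at a mean of 4.12, is assigned to this gene and to H2bu2. There FAD DKO minus FAD was -0.10 (unadjusted p = 0.69 in the limma fit that added shared probe sets). On it FAD already lay below wild type without overlap (-0.78, adjusted p = 0.455), and FAD DKO minus wild type was -0.88. The difference from FAD therefore depends on the probe set.

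Among the H2B genes with higher signal, H2bc3, formerly Hist1h2bb, had a wild type mean of 6.86 ± 0.066, a FAD mean of 6.74 ± 0.291 and a FAD DKO mean of 6.68 ± 0.084 (SD, n = 3), and all its FAD DKO arrays lay below all its wild type arrays. That difference was -0.18 (interval -0.48 to 0.12, adjusted p = 0.782 in limma). H2bc21, formerly Hist2h2be and known as an H2B variant of olfactory neurons, stood at 6.22 ± 0.449, 6.10 ± 0.26 and 5.94 ± 0.333 (SD, n = 3). H2bc18, formerly Hist2h2bb, ranged from 5.63 to 6.62 within wild type alone. H2bc9, H2bc14 and H2bc22 differed by -0.17 to 0.21 in the 3 comparisons. H2bc1, a testis H2B, lay near the floor at a mean of 1.63.

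Of the 8 H4 genes, H4f16 differed most in FAD. This gene, formerly Hist4h4, is the member outside the large clusters. It stood at 6.85, 6.51 and 6.85 on the wild type arrays, 7.14, 7.13 and 6.95 on the FAD arrays and 6.85, 6.67 and 6.73 on those of FAD DKO. The FAD arrays were the 3 highest of all 9, and wild type and FAD DKO overlapped. FAD minus wild type was 0.34 (SE 0.109, interval 0.09 to 0.59, unadjusted p = 0.0125, adjusted p = 0.493), and FAD DKO minus FAD was -0.33 (unadjusted p = 0.0153, adjusted p = 0.503). Its second, dimmer probe set gave 0.31 (unadjusted p = 0.0972 in limma) and -0.24 (unadjusted p = 0.184), with the same signs. Both differences use the FAD arrays.

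H4c12, formerly Hist1h4k, was the brightest H4 probe set and was steady. It stood at 9.99, 9.99 and 10.16 on the wild type arrays, 10.02, 9.93 and 9.84 on the FAD arrays and 10.13, 9.79 and 10.01 on those of FAD DKO, and its 3 differences lay between -0.12 and 0.04, with intervals from -0.34 to 0.27. H4c14, formerly Hist2h4, stood at 6.08, 5.61 and 5.73 on the wild type arrays, 5.57, 5.55 and 5.61 on the FAD arrays and 5.61, 5.45 and 5.35 on those of FAD DKO. Its difference between FAD DKO and wild type was -0.34 (SE 0.121, unadjusted p = 0.0212, adjusted p = 0.491), and -0.20 without wild type replicate 1, the highest array.

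H4c17, formerly Hist1h4m, lay near the floor with H2bu1-ps. It stood at 2.40, 2.23 and 2.28 on the wild type arrays, 2.27, 2.86 and 2.39 on the FAD arrays and 2.03, 1.83 and 1.93 on those of FAD DKO (difference from FAD -0.58, SE 0.142, unadjusted p = 0.00285, adjusted p = 0.321). Both probe sets had their highest value in FAD replicate 2, and without that array the difference was -0.40 for H4c17 and -0.31 for H2bu1-ps. H4c1, H4c2, H4c8 and H4c9 differed by -0.24 to 0.14 in the 3 comparisons. The H4 median was 0.03 in FAD against wild type, -0.10 in FAD DKO against FAD and -0.08 in FAD DKO against wild type. The first turned to -0.07 without wild type replicate 2 and to -0.01 without replicate 3 of either group. The last turned to 0.02 without FAD DKO replicate 2 and with array weights and to 0.01 under a low-signal filter, and the second ranged from -0.17 to -0.05 leaving out 1 FAD DKO array.

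The shared probe sets add the H3 genes and most other clustered genes. There were 38 probe sets assigned to 2 to 13 genes each, of which 3 repeat the values of another, leaving 35 distinct profiles. Each such value may combine several genes that cannot be told apart. Sequence identity between the genes was not computed. Whether the probe sets assigned to 1 member also read related genes was not tested. In a fit that added them, 0 of the 38 were called in any comparison, beside 0.0405%, 0.0225% and 0.14% of all features tested (limma, lowest adjusted p 0.282 in FAD against wild type, 0.505 in FAD DKO against FAD and 0.297 in FAD DKO against wild type). Of the 35 profiles, 8 had an unadjusted p under 0.05 in FAD against wild type, beside 8.45% of all features tested. There were 3 in FAD DKO against FAD, beside 8.09%, and 2 in FAD DKO against wild type, beside 8.13%.

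Histone H3 was read by 12 such probe sets, each for 4 or 8 genes, and 6 of them stood above the median probe set. In FAD against wild type 4 had an unadjusted p under 0.05 in limma upward and 1 downward, beside 8.45% of all features tested in either direction. Several of these probe sets cover the same genes, so the counts are not counts of separate genes. The brightest, probe set 17291183, stood at 9.08, 8.78 and 8.80 on the wild type arrays, 9.31, 9.20 and 9.45 on the FAD arrays and 9.17, 9.23 and 9.17 on those of FAD DKO. Wild type lay below both other groups without overlap (FAD minus wild type 0.43, SE 0.0993, unadjusted p = 0.00183, adjusted p = 0.288). Probe set 17285680, for 4 other H3 genes, had the lowest difference, at 6.11, 6.11 and 6.74 on the wild type arrays, 5.94, 5.97 and 5.82 on the FAD arrays and 6.11, 6.21 and 6.12 on those of FAD DKO (-0.41, adjusted p = 0.538). Probe sets for the same H3 genes disagreed. For the 4 genes of 17285680, probe sets 17291233 and 17291008 gave 0.71 and 0.38 in FAD against wild type. For the 8 genes of the brightest, other probe sets gave -0.18 to 0.65. The H3 median was 0.005 in FAD against wild type and -0.13 in FAD DKO against FAD, where 1 of 12 lay above 0, beside 53.2% of all genes.

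**Figure D3:**
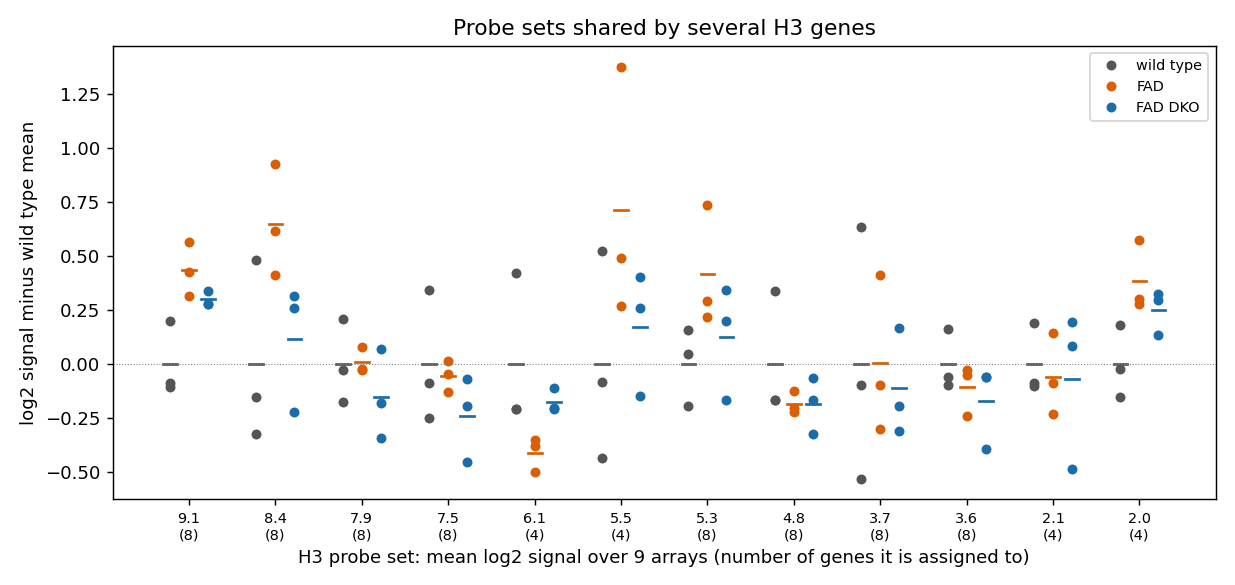
Each point is an array of a probe set shared by several H3 genes, as log2 signal minus its wild type mean, and each dash is a group mean. Probe sets are ordered by mean signal, and the FAD points lie above all wild type points in the brightest and below them in the fifth.

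For H4, probe set 17285846, assigned to 13 genes, was the shared profile with the smallest p in FAD. It stood at 7.48, 6.83 and 7.12 on the wild type arrays, 7.92, 7.94 and 7.63 on the FAD arrays and 7.30, 7.48 and 7.33 on those of FAD DKO. FAD lay above both other groups without overlap, by 0.69 from wild type (SE 0.156, unadjusted p = 0.00173, adjusted p = 0.282) and with FAD DKO minus FAD at -0.46 (adjusted p = 0.505). The order of groups was that of H4f16, which is among the genes the annotation assigns to it. Other H4 probe sets for the same 13 genes gave FAD differences of -0.24 to 0.12, so probe sets for the same genes disagreed. The brightest shared H2B and H2A probe sets, at means of 11.61 and 10.52, differed by -0.18 to 0.15 in the 3 comparisons.

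Across the 9 arrays the members did not vary as a single unit. The median Pearson r over 435 pairs was 0.15, and 0.24 after group means were removed. For the 120 pairs of members at or above the median probe set it was 0.27, and 0.43 after that removal. By type, before the removal, it was 0.36 for H4 pairs, 0.28 for H2B, 0.20 for H1 and 0.11 for H2A. After it, these were 0.53, 0.285, 0.19 and 0.09. All pairs share the same 9 arrays, and dim probe sets add noise. Probe sets may also read transcripts of related histone genes, which was not tested.

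The pair with H1f5 and H2ac15 stood at r = 0.95 over the 9 arrays and 0.98 with group means removed. They are of different histone types and are neighbours on chromosome 13, with 1 protein-coding gene, H2bc15, between them in the RefSeq order. Of all genes, 99.99% had a lower r with H1f5 than H2ac15. H1f2 and H1f3 stood at r = 0.93, and at 0.89 with group means removed, while r between H1f5 and H1f2 was 0.75. The dim pair of H2bu1-ps and H4c17 stood at 0.95.

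**Figure D4:**
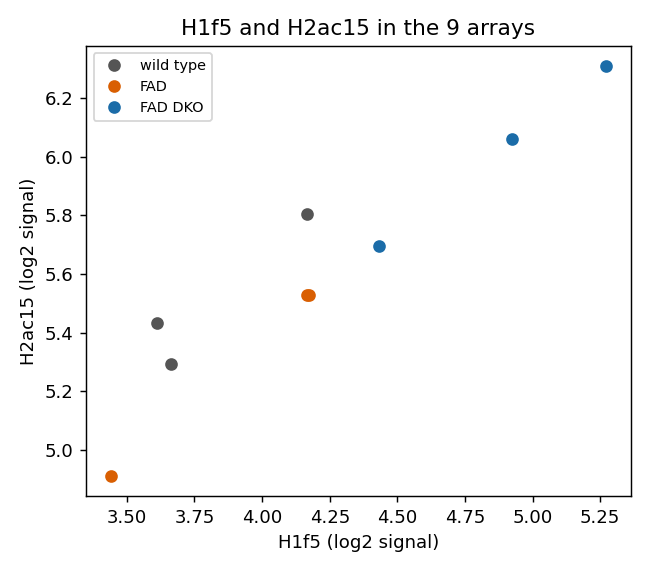
Log2 signal of H2ac15 against that of H1f5 in the 9 arrays, coloured by group. The arrays fall near a line (r = 0.95), where 2 FAD arrays coincide, with FAD DKO replicates at the upper end, from 4.43 to 5.27 for H1f5.

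Because most clustered genes are tied to S phase, their values were set beside genes of DNA replication, a list chosen with earlier results of these data known. In limma 0 of 20 replication genes were called in any comparison. In FAD against wild type 19 of 20 lay above 0, beside 47.9% of all genes, with a median of 0.20, and 7 had an unadjusted p under 0.05, beside 8.43%. After deletion, against FAD, 17 of 20 lay below 0, where 53.2% of all genes lay above 0, with a median of -0.21, and 10 had an unadjusted p under 0.05, beside 8.1%. Both use the FAD arrays. The neutrophil and monocyte markers had medians of the same signs (0.36 and -0.27), and the part of these cells in the replication values was not tested. Mcm4, a subunit of the replicative helicase, stood at 6.41, 6.41 and 6.24 on the wild type arrays, 6.86, 6.57 and 6.67 on the FAD arrays and 6.27, 6.29 and 6.14 on those of FAD DKO. Pcna, the sliding clamp of DNA polymerase, stood at 9.69, 9.90 and 9.92 on the wild type arrays, 10.18, 9.99 and 9.85 on the FAD arrays and 9.57, 9.32 and 9.35 on those of FAD DKO (FAD DKO minus FAD -0.59, adjusted p = 0.218). Mcm4 differed between FAD and wild type by 0.35, Mcm7, of the same helicase, by 0.40 and Prim1, a primase subunit, by 0.53, with adjusted p-values of 0.401 to 0.445 in limma. Gins1, of the complex that activates the helicase, had the smallest p after deletion (-0.50, adjusted p = 0.212), ahead of Pcna and Mcm4 (-0.47, adjusted p = 0.241). Gins1 read exactly 5.1388 on all 3 wild type arrays, which added no spread to the pooled SE of 0.0899 behind its p-values. For FAD DKO against wild type the smallest p-values were those of Pcna (-0.42, adjusted p = 0.293), Gins1 (-0.24) and Rrm2, a subunit of ribonucleotide reductase (0.51).

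The replication list and the H1 genes thus had opposite signs in FAD DKO against FAD, with medians of -0.21 and 0.40, and this difference between lists was not tested. The list mean of replication genes relative to wild type was 0.31, 0.13 and 0.19 on the FAD arrays and 0.04, -0.04 and -0.06 on those of FAD DKO. The 11 genes of G2 and mitosis had medians of 0.06, -0.01 and 0.13 in the 3 comparisons in the order above, with 0 called. Top2a, a topoisomerase of dividing cells, had the smallest p in FAD against wild type (0.32, adjusted p = 0.505 in limma) and in FAD DKO against wild type (0.29, adjusted p = 0.519), and Mki67, which marks cycling cells, after deletion against FAD (0.17, adjusted p = 0.679). Their list mean was highest in FAD DKO replicate 1 (0.19), which was also the array with the highest H1f5.

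**Figure D5:**
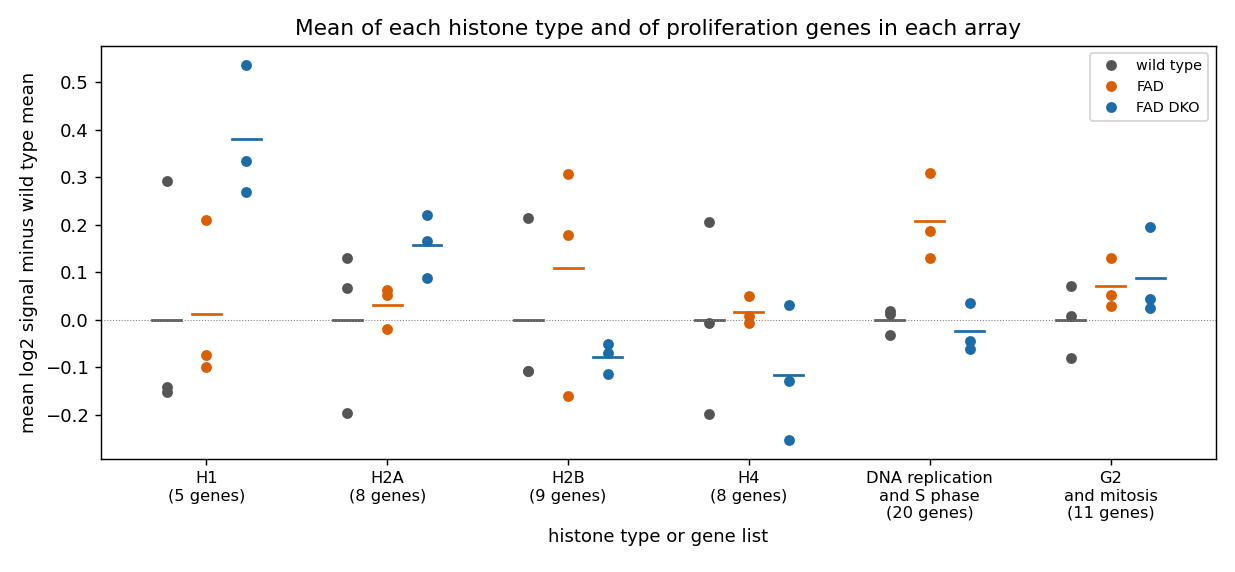
Mean log2 signal, relative to the wild type mean, over the genes of each histone type and of the replication and mitosis lists, with a point for each array and a dash for each group mean. FAD DKO arrays are at 0.27 to 0.54 for H1, where wild type replicate 1 is at 0.29, and FAD arrays at 0.13 to 0.31 for replication genes, above all others.

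The lists of genes that make and handle histones had no called member in any comparison. Of 22 genes for the transcription and 3' processing of histone transcripts, 0 were called, and medians were 0.04, -0.06 and -0.02 in the 3 comparisons. Slbp, which binds the stem-loop of histone transcripts, stood at 6.99, 6.89 and 7.13 on the wild type arrays, 7.29, 7.10 and 7.07 on the FAD arrays and 6.93, 6.87 and 6.82 on those of FAD DKO (FAD DKO minus FAD -0.28, SE 0.0882, adjusted p = 0.463). All FAD DKO arrays lay below all FAD arrays. Ncbp1, of the cap-binding complex, differed by 0.23 in FAD against wild type and by -0.33 after deletion (adjusted p = 0.579 and 0.407 in limma), and Cpsf2, of the complex that cuts histone transcripts, by 0.18 and -0.31. In all, 18 of the 22 genes lay below 0 in that comparison, where 53.2% of all genes lay above 0. Of the 22, 3 had an unadjusted p under 0.05 there in limma, beside 8.1%, and 1 did in FAD against wild type, beside 8.43%. Of 20 histone chaperones, which carry histones to and from DNA, 16 lay above 0 in FAD against wild type, beside 47.9% of all genes. In FAD DKO against FAD 15 lay below 0, where 53.2% of all genes lay above 0, with 0 called. In FAD against wild type 6 had an unadjusted p under 0.05 in limma, all higher, beside 8.43%. Without overlap 7 lay higher there, beside 6.37%, and 1 lower, beside 5.46%. FAD DKO against FAD had 3 with such a p, all lower, beside 8.1%, and FAD DKO against wild type 3, all higher, beside 8.14%. The smallest p in FAD against wild type was that of Anp32e, a chaperone that removes the H2A.Z variant from chromatin (0.32, adjusted p = 0.394), followed by Ipo4, an importin that carries H3 and H4 (0.18), and Asf1a, an H3-H4 chaperone (0.22). After deletion, against FAD, Ipo4 stood at -0.23 (adjusted p = 0.376), Cabin1 at -0.17 and Anp32e at -0.20. Cabin1 read exactly 7.1475 on all 3 wild type arrays, which added no spread to its pooled SE. Against wild type, Hat1, which acetylates new H4, stood at 0.26, Asf1a at 0.20 and Nap1l1, an H2A-H2B chaperone, at 0.27, with adjusted p-values of 0.487 to 0.574 in limma.

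A list of variant histone genes outside the clusters had 8 measured members, and 0 were called. Their median in FAD DKO against FAD was 0.18. H2ax, the H2A variant phosphorylated at DNA breaks, stood at 6.57, 6.44 and 6.50 on the wild type arrays, 6.35, 6.50 and 6.76 on the FAD arrays and 6.79, 6.86 and 6.70 on those of FAD DKO. H1f10, a linker histone, stood at 4.08, 4.43 and 4.27 on the wild type arrays, 3.97, 4.17 and 3.97 on the FAD arrays and 4.20, 4.48 and 4.35 on those of FAD DKO (FAD DKO minus FAD 0.30, SE 0.11, adjusted p = 0.53). In that comparison 5 of the 8 lay above 0 and 3 below. H2ax stood at 0.25 and the H2A variants H2az2 and Macroh2a2 at 0.22 and 0.49, while H2az1 stood at -0.30, Macroh2a1 at -0.03 and the centromeric H3 variant gene Cenpa at -0.03.

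The arrays set how much could have been missed. The median SE of a member's difference was 0.16 on the log2 scale, and the median 95% interval was 0.72 wide. The interval lay within a 2-fold change in both directions for 28 of 30 members in FAD against wild type, 25 in FAD DKO against FAD and 27 in FAD DKO against wild type. It lay within a 1.5-fold change for 19, 15 and 16 of them. For the 16 members at or above the median probe set, the counts within 2-fold were 16, 14 and 16. A 2-fold change was thus outside the interval for most members, while a 1.5-fold change, up or down, was within it for many.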

How the data were processed

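Sorted microglia were measured on 9 arrays, 3 per genotype. The authors deposited log2 signals per probe set, made with RMA per the submitters' processing notes, from RNA amplified before labelling. The software version is not given in the sources used here. Of 41345 probe sets, 23521 had 1 gene symbol, 1814 several and 16010 none listed, and the brightest probe set stood for a gene with several, which left 22180 genes. Members were found through gene identifiers and the older symbols of the RefSeq table (GRCm38.p6), since 0 symbols of the probe annotation start with Hist. Differences were fitted with limma 3.58.1 in R 4.3.3 (lmFit, eBayes, all 9 arrays, a mean per group, 8.982 moderated degrees of freedom), called at a Benjamini-Hochberg adjusted p under 0.05 over all genes, and the fit was checked on simulated data. Levels of different probe sets were set side by side only for brightness and for marker lists, as a rough guide. Signal over background was not analysed. Gene lists were described by counts and medians, with no list test. The rule for naming genes took the largest differences, smallest p and brightest probe set per type, members with several probe sets and the smallest p-values of each pathway list, and was extended to steady members and to the shared probe sets after their values were seen. The AAACACA motif was added after the data were seen. The members and lists were chosen with earlier results of these data known. Figures used Python 3.11.15 and matplotlib 3.10.9.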

Additional observations from a re-analysis of the deposited data

How the results depend on the processing

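The 3 counts of called members were 0 under all 19 alternatives (limma, 9 of which left out an array; 2, 6 and 6 members had an unadjusted p under 0.05), and the 14 member differences with an unadjusted p under 0.05 kept their sign and stayed uncalled wherever they were tested. The median over the members moved by less than the spread between arrays (1 SD), except that it was 0.058 in FAD DKO against FAD with a low-signal filter, which tests 16 members. Leaving out 1 array, it ranged from -0.05 to 0.11 in FAD against wild type, from -0.07 to -0.01 in FAD DKO against FAD and from -0.08 to 0.11 in FAD DKO against wild type, so its sign turned under some alternative in each comparison.

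The counts of called genes moved more. In FAD against wild type 9 genes were called, with 33 under a low-signal filter, 16 with median centring, 43 with a trended and robust variance, 22 with array weights, 5 with these groups alone, and 8 to 12 leaving out 1 array. In FAD DKO against FAD there were 5, with 11 under the filter, 12 with the trended and robust variance, 3 with quantile normalization, 0 with these groups alone, and 0 to 5 leaving out 1 array. In FAD DKO against wild type there were 31, with 117 under the filter, 124 with the trended and robust variance, 82 with array weights, 13 with these groups alone, 14 over every probe set, and 2 to 28 leaving out 1 array; the cause was not tested. With the replicate number as a block the counts were 8, 2 and 11; same-numbered arrays had correlations of -0.11 to 0.12 in their deviations from group means, so the numbers are not taken as pairing samples. With 3 arrays per group, precision is limited by their number.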
